A study of Mus musculus with 69 samples.

Results

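The 10 genes described here, Foxi1, Slc26a4, Slc4a9, Oxgr1, Insrr, Slc4a1, Slc26a7, Kit, Rhcg and Rhbg, stand for the identity and the acid-base transport of intercalated cells of the collecting duct. They were taken by gene symbol from the 24411 genes of a count table, and all 10 were among the 21175 genes that reached a total of 2 counts or more and were tested. The 69 libraries are RNA sequencing of mouse kidney after 4-thiouracil (4-TU) tagging, in which Uprt, a uracil phosphoribosyltransferase, lets Cre-expressing cells put 4-TU into new RNA, which is then biotinylated and pulled down. Uprt was in Rosa26 behind a floxed stop (UPRT f/+) and was turned on by Hoxb7Cre, active in the collecting duct, or by Atp6v1b1Cre (Atp6b1v1 in the labels), active in intercalated cells and in cells with both intercalated and principal features. Every mouse, controls included, carried the Uprt allele and a Cre on a C57BL/6J backcross and received 430 mg/kg of 4-TU 4 h before the kidney was taken. Control pulldowns numbered 10 for Hoxb7Cre and 11 for Atp6v1b1Cre, and 21 libraries held total kidney RNA of control mice of both genotypes. After ischemia (iAKI), in which both renal arteries were clamped for 10 min and 4-TU was given 24 h later, there were 7 Hoxb7Cre and 6 Atp6v1b1Cre pulldowns. After volume depletion (vAKI), in which food and water were restricted for 72 h, there were 7 of each. All injured mice were 5.5 months old, and 8 of the 10 Hoxb7Cre, 8 of the 11 Atp6v1b1Cre and 16 of the 21 total libraries of controls were too, while the remaining controls were 3 months old.

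Intercalated cells set the acid-base content of the urine. Type A cells secrete acid through an apical proton pump and return bicarbonate to the blood through the basolateral exchanger AE1, whereas type B cells secrete bicarbonate through the apical chloride-bicarbonate exchanger pendrin. The forkhead factor Foxi1 is needed for both types and drives the genes of their proton pump and exchangers. Rhcg and Rhbg, the latter basolateral, carry ammonia, the main vehicle of acid in the urine.

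Foxi1 lies at chr11:34204338-34208089 on the minus strand of GRCm38, Slc26a4 at chr12:31519827-31559969 (minus) and Oxgr1 at chr14:120019585-120042435 (minus), by GENCODE M21. Slc4a1 lies at chr11:102348824-102366203 (minus), Slc26a7 at chr4:14502430-14621805 (minus), Kit at chr5:75574916-75656722 (plus), Insrr at chr3:87796951-87816101 (plus), Rhcg at chr7:79593363-79617657 (minus) and Rhbg at chr3:88242874-88254709 (minus). Each is a protein-coding gene, and the counts are of reads over exons. Insrr overlaps Pear1 on the opposite strand, Rhcg overlaps Gm45170 and Rhbg overlaps Gm38392 on the same strand, so that the counts of these 3 members are uncertain. The 250 bases before the RefSeq start of Foxi1 (chr11:34208090-34208339), Slc26a4 (chr12:31559985-31560234) and Oxgr1 (chr14:120042436-120042685), on the minus strand of GRCm38.p6 and written 5′ to 3′, are shown because these were the members higher in the Atp6v1b1Cre than in the Hoxb7Cre pool that had an entry in the RefSeq promoter table.
Foxi1: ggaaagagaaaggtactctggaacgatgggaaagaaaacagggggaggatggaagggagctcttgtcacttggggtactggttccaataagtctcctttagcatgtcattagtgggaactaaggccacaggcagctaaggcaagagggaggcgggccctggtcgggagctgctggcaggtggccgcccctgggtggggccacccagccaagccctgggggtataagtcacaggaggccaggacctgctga
Slc26a4: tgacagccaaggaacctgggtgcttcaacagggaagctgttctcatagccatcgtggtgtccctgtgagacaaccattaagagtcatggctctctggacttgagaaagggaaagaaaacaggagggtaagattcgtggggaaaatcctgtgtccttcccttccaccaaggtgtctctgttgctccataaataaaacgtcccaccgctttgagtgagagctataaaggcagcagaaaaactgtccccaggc
Oxgr1: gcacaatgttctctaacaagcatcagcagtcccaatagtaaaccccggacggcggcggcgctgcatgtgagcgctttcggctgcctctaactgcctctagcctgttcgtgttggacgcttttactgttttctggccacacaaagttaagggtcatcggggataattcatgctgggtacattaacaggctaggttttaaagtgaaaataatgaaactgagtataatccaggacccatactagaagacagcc
The forkhead core GTAAACA, searched on both strands (TGTTTAC on the other), was not found in the 300-base windows, from 250 bases before to 50 after the start, of the 5 members in that table, Foxi1, Slc26a4, Oxgr1, Rhcg and Kit, the last with 2 starts. It stood in 3.65% of the 32851 windows of the table. This says only that these letters are not in those windows, so no base is printed in capitals.

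The libraries held 12618062 to 30305464 counts, with a median of 20868430, and Slc26a7, with 12 to 124 counts in a library, was the member with the fewest. Levels are given as CPM, counts scaled to the size of the library, on one scale over the 69 libraries. The library numbers in the labels fall into 3 runs, called series A, B and C here, and the labels do not say what a run was. The Hoxb7Cre libraries of injured mice were all of series A, whereas the Hoxb7Cre controls were 3 of series A, 5 of B and 2 of C. Some calls changed within series, and the values within series are given below for many of these but not for all. The summed level of 6 proximal tubule markers had a median of 3345 CPM in pulldowns and of 16379 CPM in total RNA, and that of 8 principal cell markers had medians of 1160 and 1052 CPM. The pulldown medians join both drivers and injured with control mice, while total RNA was of controls only. The principal cell sum differed between the drivers, as given with the injuries below.

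The identity factor Foxi1 and 3 of the 4 members listed with type B cells, pendrin (Slc26a4), Slc4a9 and Oxgr1, were higher in both pulldown pools of control mice than in total kidney RNA. Insrr, the other member listed with type B cells, passed in the Atp6v1b1Cre but not in the Hoxb7Cre pool. Kit, a receptor tyrosine kinase of type A cells, was higher in both pools and Rhbg was lower in both. In the Atp6v1b1Cre pool 6 of 10 members were higher, beside 34.4% of all genes tested, and 1 was lower, beside 29.4%. In the Hoxb7Cre pool 6 were higher, beside 35.6%, and 1 was lower, beside 31.1%. The median log2 fold change of the members was 1.01 in the Atp6v1b1Cre and 0.57 in the Hoxb7Cre pool, against 0.11 over all genes in each. Passing here and throughout means a p below 0.05 from edgeR's quasi-likelihood F-test after adjustment over all genes tested by the method of Benjamini and Hochberg. Total and pulldown libraries may be of the same mice, as given under processing, and the tests treat them as independent. The pools differ from total RNA both in the cells labelled and in holding new RNA, and these cannot be told apart, nor can fewer cells of a type and less RNA per cell.

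Foxi1 had a lowest, median and highest level of 20.0, 49.2 and 97.0 CPM in total RNA, of 48.2, 119 and 179 CPM in the Hoxb7Cre pool and of 119, 210.0 and 342 CPM in the Atp6v1b1Cre pool. Every Atp6v1b1Cre library was above every total library, while the Hoxb7Cre libraries overlapped both. Its log2 fold change against total RNA was 2.10 (SE 0.18, adjusted p = 1.74e-14) in Atp6v1b1Cre and 1.22 (SE 0.18, adjusted p = 9.91e-08) in Hoxb7Cre. Oxgr1, the receptor for α-ketoglutarate on type B cells, gave the clearest order, at 32.8, 46.3 and 66.2 CPM in total RNA, 78.4, 120.0 and 149.9 CPM in Hoxb7Cre and 159, 235 and 335 CPM in Atp6v1b1Cre. No library of one of these groups overlapped another group. Oxgr1 was 5.16-fold higher in Atp6v1b1Cre than in total RNA (log2 2.37, SE 0.09, adjusted p = 8.96e-27) and also higher in Hoxb7Cre (log2 1.32, SE 0.09, adjusted p = 4.17e-17). Slc26a4 lay at 111, 148 and 224 CPM in total RNA, 229, 349 and 513 CPM in Hoxb7Cre and 221, 505 and 562 CPM in Atp6v1b1Cre. The Hoxb7Cre pool lay wholly above total RNA for Slc26a4, and 1 Atp6v1b1Cre library fell within the range of total RNA.

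Slc4a9, the basolateral exchanger AE4 of type B cells, was at 91.0, 154 and 218 CPM in total RNA, 129, 254 and 326 CPM in Hoxb7Cre and 126, 337 and 491 CPM in Atp6v1b1Cre. The 3 groups overlapped, and the rise was smaller than that of the other type B genes above, with a log2 fold change of 1.17 (SE 0.13, adjusted p = 1.67e-10) in Atp6v1b1Cre and 0.64 (SE 0.14, adjusted p = 7.24e-05) in Hoxb7Cre. Insrr, the insulin receptor-related receptor that senses alkali, ranged from 29.6 to 64.8 CPM in total RNA, from 8.82 to 103 CPM in Hoxb7Cre and from 20.9 to 133 CPM in Atp6v1b1Cre. It was higher in Atp6v1b1Cre (log2 0.86, SE 0.25, adjusted p = 0.00292) and had a log2 fold change of 0.16 in Hoxb7Cre (SE 0.27, adjusted p = 0.623), where its libraries spread on both sides of total RNA. Insrr in the Hoxb7Cre pool passed in series A (log2 1.08, adjusted p = 0.000235) and was at −0.32 in series B (adjusted p = 0.259). In the Atp6v1b1Cre pool Insrr passed in series A (1.11, adjusted p = 7.46e-05) and not in series B (0.40, adjusted p = 0.252).

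The type A genes did not move together. Kit was at 8.26, 14.3 and 24.3 CPM in total RNA, 24.3, 59.9 and 123 CPM in Hoxb7Cre and 37.1, 56.7 and 79.2 CPM in Atp6v1b1Cre. It was 3.76-fold higher in the Atp6v1b1Cre (log2 1.91, SE 0.19, adjusted p = 2.64e-12) and 4.67-fold higher in the Hoxb7Cre pool (log2 2.22, SE 0.19, adjusted p = 3.41e-14). Kit also marks mast cells, whose 6 listed markers summed to between 0 and 1.32 CPM in pulldowns and between 0.305 and 3.17 CPM in total RNA, and their part in the Kit values was not tested. Slc4a1, the exchanger AE1, lay at 18.8, 29.5 and 43.9 CPM in total RNA, 4.13, 23.8 and 72.5 CPM in Hoxb7Cre and 9.52, 32.6 and 70.1 CPM in Atp6v1b1Cre. Neither pool differed from total RNA beyond the spread of Slc4a1, with a log2 fold change of 0.04 in Atp6v1b1Cre (SE 0.28, adjusted p = 0.917) and −0.15 in Hoxb7Cre (SE 0.28, adjusted p = 0.664).

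For Slc4a1 that pooled value hid opposite values by series: in Hoxb7Cre it was 1.19 higher on the log2 scale in series A (adjusted p = 0.000548) and fell by 0.67 in series B (adjusted p = 0.0394), and in males alone it was 0.70. In Atp6v1b1Cre it was 0.23 in series A (adjusted p = 0.48) and −0.83 in series B (adjusted p = 0.0475). Slc4a1 is also an exchanger of red cells, and Alas2, an enzyme of heme synthesis in the red cell lineage, was at 0.495 to 3.21 CPM in pulldowns, with a median of 1.31, and had a median of 18.5 CPM in total RNA. The part of red cells in the Slc4a1 comparison with total RNA was not tested. Slc26a7, a basolateral anion exchanger of type A cells of the outer medulla, was low in every group, at 0.615, 2.19 and 4.67 CPM in total RNA, 1.57, 3.66 and 4.45 CPM in Hoxb7Cre and 1.11, 1.75 and 3.73 CPM in Atp6v1b1Cre. Its log2 fold changes against total RNA were 0.49 in Hoxb7Cre (adjusted p = 0.0551) and −0.19 in Atp6v1b1Cre (adjusted p = 0.486).

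The ammonia transporters differed from each other. Rhbg was at 27.6, 39.2 and 63.1 CPM in total RNA, 5.09, 14.8 and 22.5 CPM in Hoxb7Cre and 11.5, 27.8 and 40.4 CPM in Atp6v1b1Cre. It was lower in both pools, by a log2 fold change of −1.57 in Hoxb7Cre (SE 0.19, adjusted p = 6.16e-10), where the groups did not overlap, and of −0.66 in Atp6v1b1Cre (SE 0.18, adjusted p = 0.000953). Rhcg was at 94.6, 121 and 169 CPM in total RNA, 43.5, 174 and 244 CPM in Hoxb7Cre and 67.9, 157 and 194 CPM in Atp6v1b1Cre. It passed in Hoxb7Cre (log2 0.41, SE 0.15, adjusted p = 0.0167), although its value in females alone was −0.00, and was at 0.29 in Atp6v1b1Cre (SE 0.15, adjusted p = 0.0803). With libraries of 1 driver compared within strata of the same sex, age and series, Rhcg was at 0.30 in Hoxb7Cre (adjusted p = 0.0963) and at 0.27 in Atp6v1b1Cre (adjusted p = 0.0361), so that each call changed side. Within series A alone Rhcg passed in Atp6v1b1Cre (0.41, adjusted p = 0.00336). Within series B alone it did not pass in Hoxb7Cre (0.33, adjusted p = 0.241).

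**Figure D1:**
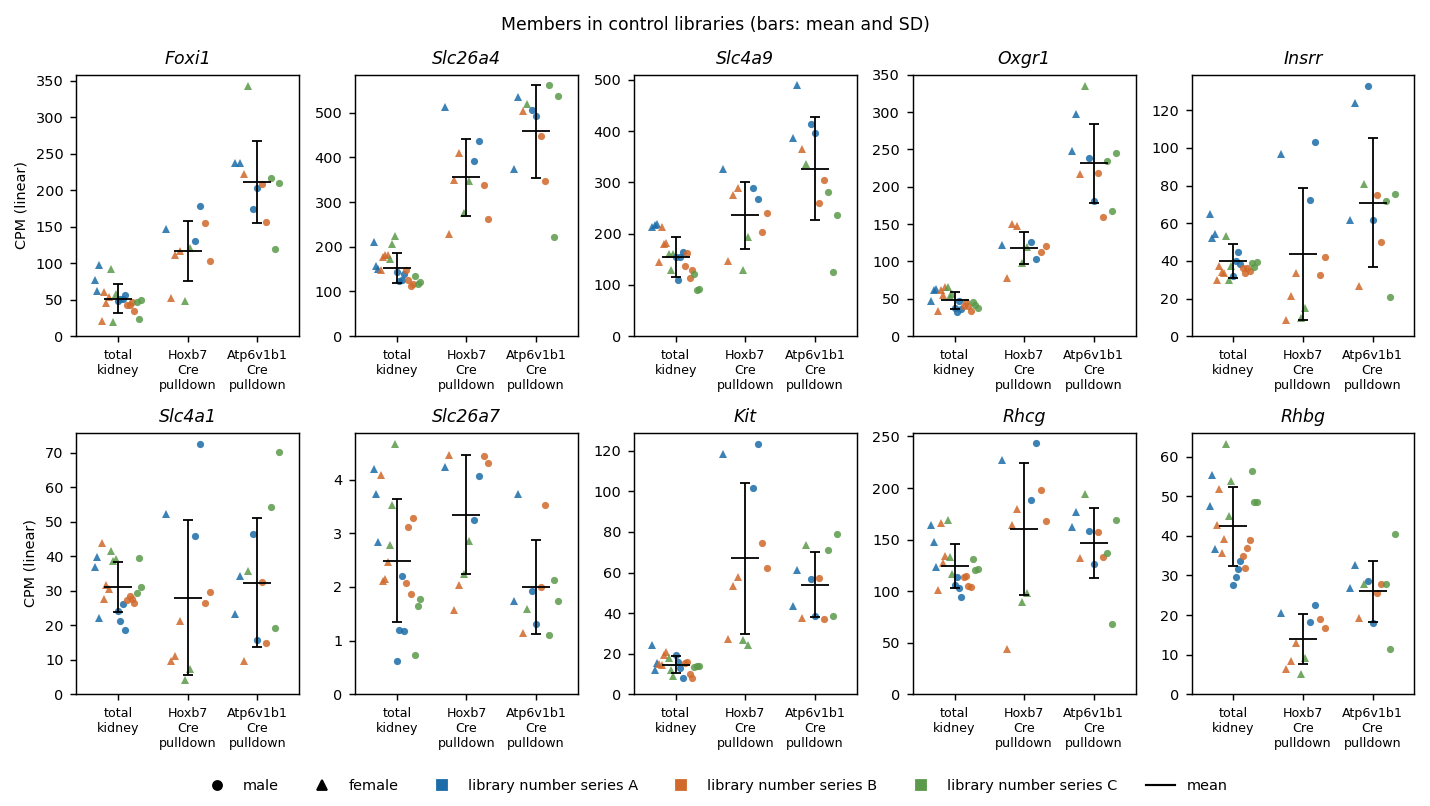
Level of each member in the 42 control libraries, in CPM on a linear axis, by total kidney RNA and pulldown pool, with circles for males, triangles for females, colors for the series of library numbers, and bars for the mean and SD. Oxgr1 separates the 3 groups, Rhbg is lowest in Hoxb7Cre, and the Hoxb7Cre controls of series A hold the highest values of Insrr, Slc4a1 and Kit in that pool.

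Within series A, 9 of 10 members were higher in the Hoxb7Cre pool than in total RNA, beside 26.8% of all genes, and 1, Rhbg, was lower, beside 27%. The additional members were Insrr, Slc4a1 and Slc26a7 (log2 1.08, SE 0.32, adjusted p = 0.00768), and Rhcg was at 0.98 (SE 0.12, adjusted p = 4.94e-07). Series A held 3 Hoxb7Cre and 7 total libraries. What set the series apart cannot be told from the labels.

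Between the pools, 5 members were higher in Atp6v1b1Cre than in Hoxb7Cre, beside 5.73% of all genes, and none was lower, beside 4.2%. These were Foxi1 (log2 0.88, SE 0.22, adjusted p = 0.00379), Slc26a4 (0.43, SE 0.13, adjusted p = 0.0216), Slc4a9 (0.52, SE 0.16, adjusted p = 0.0285), Oxgr1 (1.04, SE 0.11, adjusted p = 1.79e-09) and Rhbg (0.91, SE 0.20, adjusted p = 0.00126). Of these 5, 4 are the identity factor and members listed with type B cells. Outside the members, Spink8, also listed with type B cells, was lower in Atp6v1b1Cre (−0.99, SE 0.16, adjusted p = 5.06e-06). The type A genes Slc4a1, Slc26a7 and Kit had log2 fold changes of 0.19, −0.68 and −0.31, each with an adjusted p above 0.1. Oxgr1 passed within series A (0.95, adjusted p = 3e-04) and within series B (0.77, adjusted p = 0.0383). Foxi1 was at 0.38 in series A (adjusted p = 0.144) and 0.85 in series B (adjusted p = 0.113), and Slc26a4 at 0.07 and 0.52, neither of which passed. Rhbg passed in neither series either, at 0.27 in series A (adjusted p = 0.393) and 0.89 in series B (adjusted p = 0.0617), and Slc4a9 passed in series A (0.46, adjusted p = 0.0425) and not in series B (0.49, adjusted p = 0.179). In series A, Slc4a1 (−0.96, adjusted p = 0.0409), Kit (−1.23, adjusted p = 0.00213) and Rhcg (−0.57, adjusted p = 0.00858) were lower in Atp6v1b1Cre than in Hoxb7Cre, and Slc4a1 thus had the opposite sign to its pooled value.

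**Figure D2:**
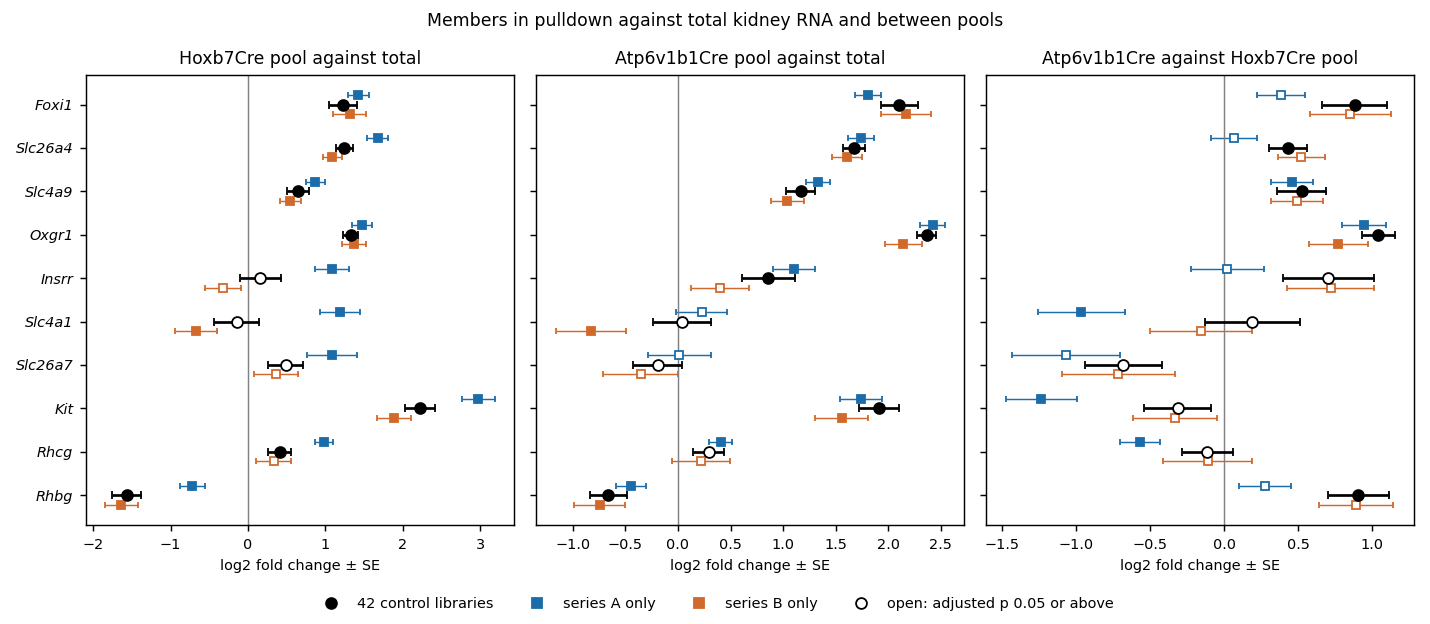
Log2 fold change with its SE of each member in the Hoxb7Cre and Atp6v1b1Cre pools against total RNA and between the pools, over the 42 control libraries (circles) and within series A or B (squares), filled where the adjusted p is below 0.05. Oxgr1 stays near its pooled value in both series, while Slc4a1 in Hoxb7Cre lies at 1.19 in series A and −0.67 in series B.

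Scaled to the length of their merged exons, the members stood in a different order in each group. The paper cautions that the method may favor RNA rich in uracil and that differing kinetics may limit comparison between genes. The orders within the pools were corrected for neither. In total RNA Rhcg (55.7 ± 9.74 CPM per kb, SD, n = 21) and Slc26a4 (49.3 ± 10.7) led and did not differ beyond their SD. Slc4a9 at 24.1, Rhbg at 21.9, Foxi1 at 21.8 and Oxgr1 at 12.8 CPM per kb followed, each overlapping the next within its SD. Insrr (6.98) and Slc4a1 (6.35) overlapped each other, and Kit (1.64) and Slc26a7 (0.458) were lowest and apart. In the Atp6v1b1Cre pool Slc26a4 stood alone at 147.6 ± 33.4 CPM per kb (SD, n = 11). Foxi1 at 89.8, Rhcg at 65.8, Oxgr1 at 62.0 and Slc4a9 at 51.1 CPM per kb overlapped in turn. Rhbg at 13.4, Insrr at 12.4, Slc4a1 at 6.62 and Kit at 6.06 CPM per kb were a lower set of overlapping neighbours, and Slc26a7 was again lowest at 0.367. In the Hoxb7Cre pool Slc26a4 (114 ± 27.9 CPM per kb, SD, n = 10) and Rhcg (71.8 ± 28.6) led and overlapped, and Foxi1, Slc4a9 and Oxgr1 followed at 49.4, 36.8 and 31.6 CPM per kb. Insrr at 7.62, Kit at 7.51, Rhbg at 7.18 and Slc4a1 at 5.73 CPM per kb could not be ordered.

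A wider list of 26 other intercalated cell genes, mostly subunits of the proton pump, carbonic anhydrases, chloride channels and transcription factors, moved in both directions. In the Atp6v1b1Cre pool 14 were higher and 12 lower than in total RNA, beside 34.4% and 29.4% of all genes, and in the Hoxb7Cre pool 12 were higher and 13 lower, beside 35.6% and 31.1%. Of those with the largest changes in Atp6v1b1Cre, Atp12a, an H,K-ATPase subunit, was at a log2 fold change of 2.11 (SE 0.29). Hmx2, a homeobox factor listed with type B cells, was at 1.89 (SE 0.13). Avpr1a, a vasopressin receptor, was at 1.86 (SE 0.16) and Atp6v0d2, a proton pump subunit, at 1.71 (SE 0.11). Atp6v1b1, the pump subunit whose promoter drives the Cre, was itself lower than in total RNA, by −0.51 in the Atp6v1b1Cre pool (SE 0.15, adjusted p = 0.00355) and −1.01 in the Hoxb7Cre pool (SE 0.16, adjusted p = 4.1e-07). Aqp6 (−0.69, adjusted p = 0.00322) and Car2 (−1.44, adjusted p = 7.07e-16) were lower in the Atp6v1b1Cre pool too. These 3 were singled out after their values were seen. The paper states that Car2 is expressed at several sites of the kidney, among them the thick ascending limb. Against total RNA the identity factor and the 4 type B members were thus higher in the Atp6v1b1Cre pool over all controls. Insrr did not pass within series B alone. Atp6v1b1, Aqp6 and Car2 were lower in that pool, while 14 of the 26 were higher. Between the pools 7 of the 26 were higher in Atp6v1b1Cre and 3 were lower, beside 5.73% and 4.2% of all genes. Those higher included the pump subunit Atp6v1g3 at 0.84 (SE 0.13, adjusted p = 4.12e-06) and barttin, Bsnd, at 0.69 (SE 0.09, adjusted p = 3.52e-07). Those lower included Spink8, listed with type B cells, at −0.99 (SE 0.16, adjusted p = 5.06e-06).

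In all, 3 members were slightly higher in females than in males over the control libraries, beside 13.8% of all genes, and none was lower, beside 16.5%. They were Slc26a4 (log2 0.27, SE 0.09, adjusted p = 0.0196), Slc4a9 (0.32, SE 0.11, adjusted p = 0.0324) and Oxgr1 (0.35, SE 0.08, adjusted p = 0.000456). These 3 are listed with type B cells, and Insrr, the other such member, was at −0.14 (SE 0.22, adjusted p = 0.68). The remaining 7, Insrr among them, lay between −0.26 (Slc4a1) and 0.32 (Slc26a7). Total and pulldown libraries in this comparison may be of the same mice. Within series the calls were not the same. In series A Oxgr1 (0.44, adjusted p = 0.00825) and Slc4a9 (0.39, adjusted p = 0.0135) passed and Slc26a4 did not (0.23, adjusted p = 0.212), while Foxi1 (0.42, adjusted p = 0.0199), Rhcg (0.35, adjusted p = 0.0209), Rhbg (0.44, adjusted p = 0.0241) and Slc26a7 (1.02, adjusted p = 0.0152) were higher in females too. In series B Slc26a4 passed (0.35, adjusted p = 0.0297), and Slc4a9 (0.32, adjusted p = 0.0746), Oxgr1 (0.30, adjusted p = 0.148) and Slc26a7 (−0.38, adjusted p = 0.339) did not. Of the wider list 6 were higher and 2 lower in females, beside the same 13.8% and 16.5% of all genes.

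The injury comparisons were made in male pulldowns of 5.5 months, in which the controls of a driver serve both injuries. Hoxb7Cre gave 4 control, 4 ischemia and 3 volume depletion libraries, and Atp6v1b1Cre gave 4, 3 and 4. In Hoxb7Cre the injured libraries also held less of the principal cell markers, which summed to between 2802 and 3646 CPM in male controls, between 1072 and 1315 CPM after ischemia and between 1174 and 1261 CPM after volume depletion. In male Atp6v1b1Cre mice the sum was between 846 and 866 CPM in controls, 759 and 1128 CPM after ischemia and 721 and 913 CPM after volume depletion. The part of these cells in the changes below was not tested.

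After ischemia in Hoxb7Cre males, 2 of the type A genes fell, Slc4a1 and Kit, beside 2.79% of all genes lower, and none of the members rose, beside 3.34%. Slc4a1 was at 45.9, 72.5, 26.4 and 29.8 CPM in controls and at 17.2, 2.97, 7.46 and 11.4 CPM after ischemia. The groups did not overlap, and Slc4a1 was 4.43-fold lower (log2 −2.15, SE 0.46, adjusted p = 0.00798). Kit was at 102, 123, 74.6 and 62.1 CPM in controls and at 58.0, 30.9, 43.6 and 52.5 CPM after ischemia, a log2 fold change of −0.95 (SE 0.27, adjusted p = 0.0399). The Kit call was lost without ischemia replicate 5, 6 or 7 or control replicate 2 or 3, where the adjusted p lay between 0.0668 and 0.148. Oxgr1, Rhcg, Rhbg and Slc26a7 were below every control as well but did not pass, with log2 fold changes of −0.37, −0.83, −0.74 and −1.06, so that 6 members lay wholly below the controls, beside 7.73% of all genes. Single libraries of Atp6v1b1Cre mice, which share the estimate of spread, moved some of these over the threshold: without volume depletion replicate 1 Rhcg (adjusted p = 0.0481) and Slc26a7 (adjusted p = 0.0363) passed, and without ischemia replicate 5 Insrr (adjusted p = 0.0338) and Rhbg (adjusted p = 0.0265) did. Foxi1, Slc26a4 and Slc4a9 had log2 fold changes of −0.09, −0.15 and 0.01. In series A alone, with both sexes, Slc4a1 (−1.72, adjusted p = 0.0428), Kit (−1.10, adjusted p = 0.0083) and Insrr (−1.42, adjusted p = 0.0391) were lower. Over both sexes and all series Slc4a1 was at −0.72 (adjusted p = 0.463) and Kit at −0.37 (adjusted p = 0.546).

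After volume depletion in Hoxb7Cre males, 6 of 10 members fell, beside 17.6% of all genes, and none rose, beside 17.9%. They were the identity factor Foxi1, the alkali sensor Insrr, both ammonia transporters, Kit and Slc4a1. Foxi1 was at 130, 179, 155 and 103 CPM in controls and at 42.3, 34.9 and 40.1 CPM after volume depletion. The groups were far apart, and Foxi1 was 3.61-fold lower (log2 −1.85, SE 0.34, adjusted p = 0.000185). Insrr was at 72.3, 103, 32.6 and 41.9 CPM in controls and at 8.31, 8.61 and 9.17 CPM after volume depletion. The 3 depleted libraries lay close together and Insrr was 7.15-fold lower (log2 −2.84, SE 0.52, adjusted p = 0.000176). Rhcg was at 189, 244, 198 and 168 CPM in controls and at 66.8, 73.2 and 90.1 CPM (log2 −1.38, SE 0.32, adjusted p = 0.00177). Rhbg was at 18.4, 22.5, 18.9 and 16.8 CPM in controls and at 5.34, 9.73 and 10.5 CPM (log2 −1.16, SE 0.30, adjusted p = 0.00464). Neither ammonia transporter overlapped its controls.

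Kit in the same mice was at 48.7, 41.4 and 39.8 CPM after volume depletion (log2 −1.05, SE 0.30, adjusted p = 0.00809) and Slc4a1 at 14.2, 12.8 and 23.4 CPM (log2 −1.37, SE 0.49, adjusted p = 0.0325). Both lay below all 4 of the controls given above. The Slc4a1 call was lost without volume depletion replicate 4 or 6 or control replicate 2 or 3, with an adjusted p between 0.0555 and 0.127. With Oxgr1 (log2 −0.47, SE 0.20, adjusted p = 0.0661), 7 members lay wholly below the controls, beside 19.8% of all genes; Oxgr1 passed without Atp6v1b1Cre ischemia replicate 1 (adjusted p = 0.0372) or 5 (adjusted p = 0.0328). The type B exchangers did not follow Foxi1: Slc26a4 was at 392, 437, 339 and 261 CPM in controls and at 259, 478 and 461 CPM after volume depletion (log2 0.17, SE 0.24, adjusted p = 0.649), and Slc4a9 was at 0.13 (SE 0.31, adjusted p = 0.812). In series A alone, with both sexes, Foxi1 (−1.12, adjusted p = 0.0215), Insrr (−2.52, adjusted p = 0.000102), Rhcg (−1.11, adjusted p = 0.00613), Rhbg (−0.96, adjusted p = 0.011), Kit (−1.17, adjusted p = 0.000863) and Slc4a1 (−1.93, adjusted p = 0.00276) passed again. Over both sexes and all series Insrr passed (−1.44, adjusted p = 0.0433), while Foxi1 (−0.77, adjusted p = 0.0752), Slc4a1 (−0.99, adjusted p = 0.179), Rhcg (−0.56, adjusted p = 0.211), Rhbg (−0.42, adjusted p = 0.354) and Kit (−0.41, adjusted p = 0.395) did not.

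After ischemia in Atp6v1b1Cre males none of the 10 members passed by edgeR, beside 3.77% of all genes higher and 4.74% lower. By DESeq2 none passed either, beside 1298 genes higher and 1607 lower. By edgeR 1 of the members, Rhbg, had an unadjusted p below 0.05. The 3 mice were not alike. Rhbg was at 28.5, 18.1, 25.7 and 27.9 CPM in controls and at 62.2, 47.4 and 17.9 CPM after ischemia, and Insrr at 133, 61.8, 74.8 and 49.8 CPM in controls and at 127, 73.0 and 21.1 CPM. The lowest value of both genes was that of ischemia replicate 5, the single male of series B. The log2 fold change of Rhbg was 0.75 (SE 0.29, adjusted p = 0.106), and 1.14 without replicate 5 (adjusted p = 0.00649). Slc26a4 was at 505, 494, 448 and 346 CPM in controls and at 728, 617 and 271 CPM after ischemia. Within series A, with both sexes, Slc26a4 was higher after ischemia (0.73, SE 0.20, adjusted p = 0.0106), and within series B it was lower (−0.92, SE 0.23, adjusted p = 0.0486). Rhbg was higher in series A (1.10, SE 0.28, adjusted p = 0.00672) and was at −0.42 in series B (SE 0.37, adjusted p = 0.614). The 4 series A libraries after ischemia held 933 to 1674 CPM of the principal cell markers and the 2 of series B 702 to 759 CPM, against 784 to 1049 CPM in controls of series A and 846 to 1063 CPM in those of series B.

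After volume depletion in Atp6v1b1Cre males 4 members fell, beside 6.47% of all genes, and none rose, beside 8.11%. Insrr was at 30.0, 21.8, 14.1 and 12.0 CPM after volume depletion, below all 4 controls, and was 4.02-fold lower (log2 −2.01, SE 0.44, adjusted p = 0.00411). Rhbg, at 14.9, 11.5, 9.34 and 8.22 CPM, was also below all controls (log2 −1.17, SE 0.28, adjusted p = 0.00689). Oxgr1 was at 239, 181, 219 and 159 CPM in controls and at 129, 149, 98.6 and 101 CPM (log2 −0.73, SE 0.18, adjusted p = 0.01). Foxi1 was at 174, 203, 209 and 156 CPM in controls and at 123, 155, 37.0 and 48.3 CPM (log2 −1.01, SE 0.30, adjusted p = 0.025). The 2 depleted libraries of series B were the low ones for Foxi1, and the 2 of series A nearly reached the lowest control. Its call was lost without control replicate 9 or 10 or volume depletion replicate 6 or 7, with an adjusted p between 0.0565 and 0.0912. Foxi1 nevertheless passed within series A (−1.29, adjusted p = 0.0237) and within series B (−1.99, adjusted p = 0.0022) with both sexes, and in females alone, where it was at 237, 238, 223 and 342 CPM in controls and at 46.1, 35.6 and 62.1 CPM after volume depletion (log2 −2.44, SE 0.36, adjusted p = 0.00139).

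Of the other members in these males, Slc26a4 (−0.61, SE 0.22, adjusted p = 0.0705), Slc4a1 (−1.24, SE 0.45, adjusted p = 0.0648) and Rhcg (−0.77, SE 0.29, adjusted p = 0.0755) were nearest to the threshold. With Slc26a4 and Slc4a1, 6 members lay wholly below the controls, beside 7.41% of all genes. Slc26a4, Slc4a1, Slc4a9, Rhcg and Slc26a7 each passed when 1 library was left out, among them ischemia replicate 5, control replicates 9 and 11, volume depletion replicates 1 and 2 and Hoxb7Cre ischemia replicate 5. Slc26a7 went the other way, at 1.93, 1.31, 1.99 and 3.52 CPM in controls and at 1.55, 4.11, 4.73 and 4.34 CPM after volume depletion. Its log2 fold change was 0.74 in males (SE 0.35, adjusted p = 0.161), 1.00 without volume depletion replicate 1 (adjusted p = 0.0281), and 1.09 with both sexes (SE 0.29, adjusted p = 0.0038). With both sexes Slc26a4 (−0.63, adjusted p = 0.0247) and Rhcg (−0.97, adjusted p = 0.012) passed as well. Within single series, with both sexes, Slc26a4 passed in A (−0.61, adjusted p = 0.0364) and Slc26a7 in B (1.39, adjusted p = 0.0271). Insrr did not pass in series B (−1.36, adjusted p = 0.0688).

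**Figure D3:**
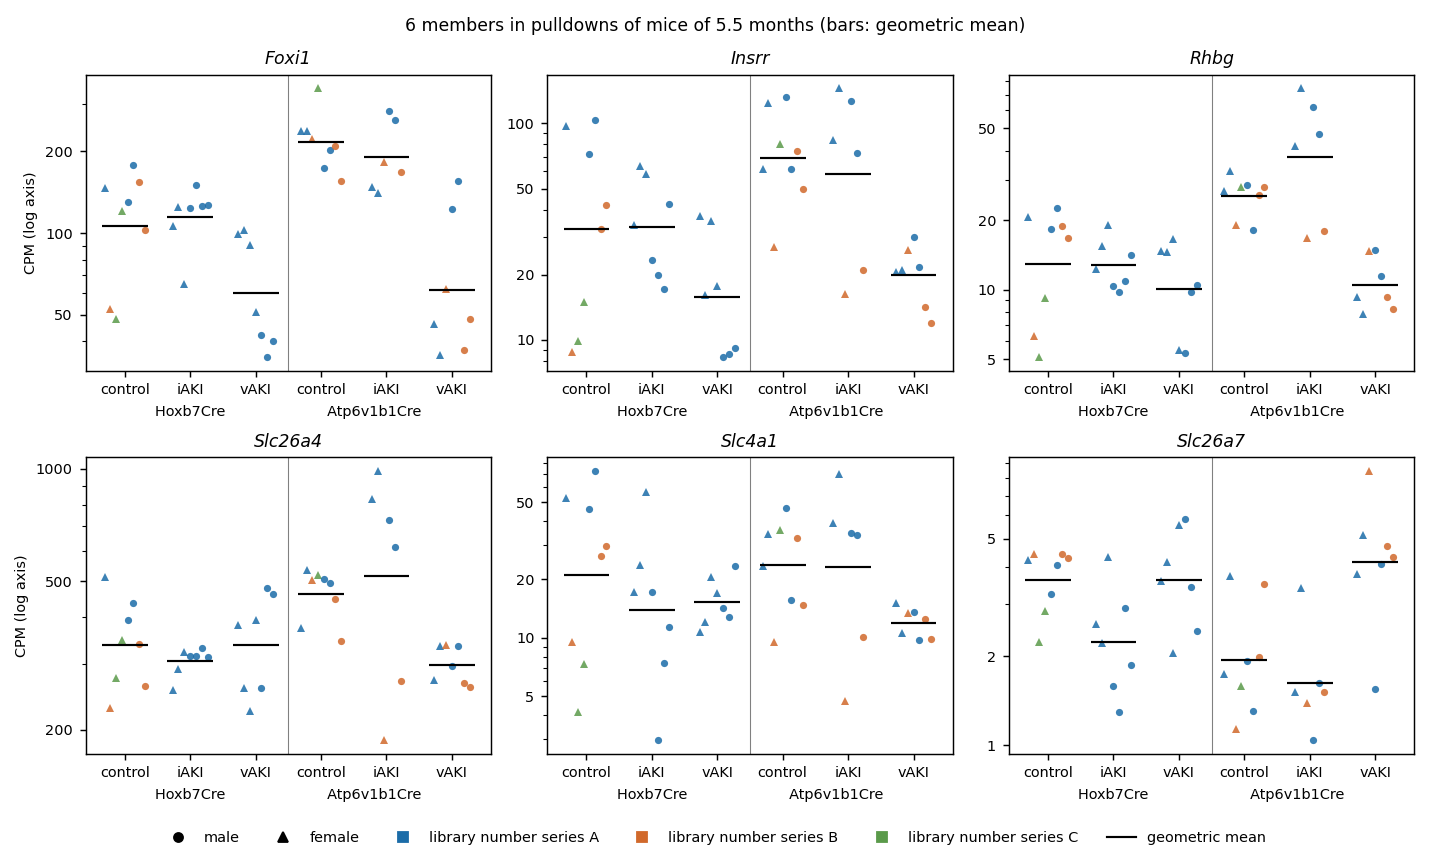
Level of 6 members in pulldowns of mice of 5.5 months, in CPM on a log axis, by driver and condition, with circles for males, triangles for females, colors for the series of library numbers and bars for the geometric mean. The 3 Hoxb7Cre males after volume depletion sit between 34.9 and 42.3 CPM for Foxi1 and between 8.31 and 9.17 CPM for Insrr, below all controls of their sex, and the series B mice after ischemia are the lowest of the Atp6v1b1Cre ischemia group for Slc26a4 and Rhbg.

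**Figure D4:**
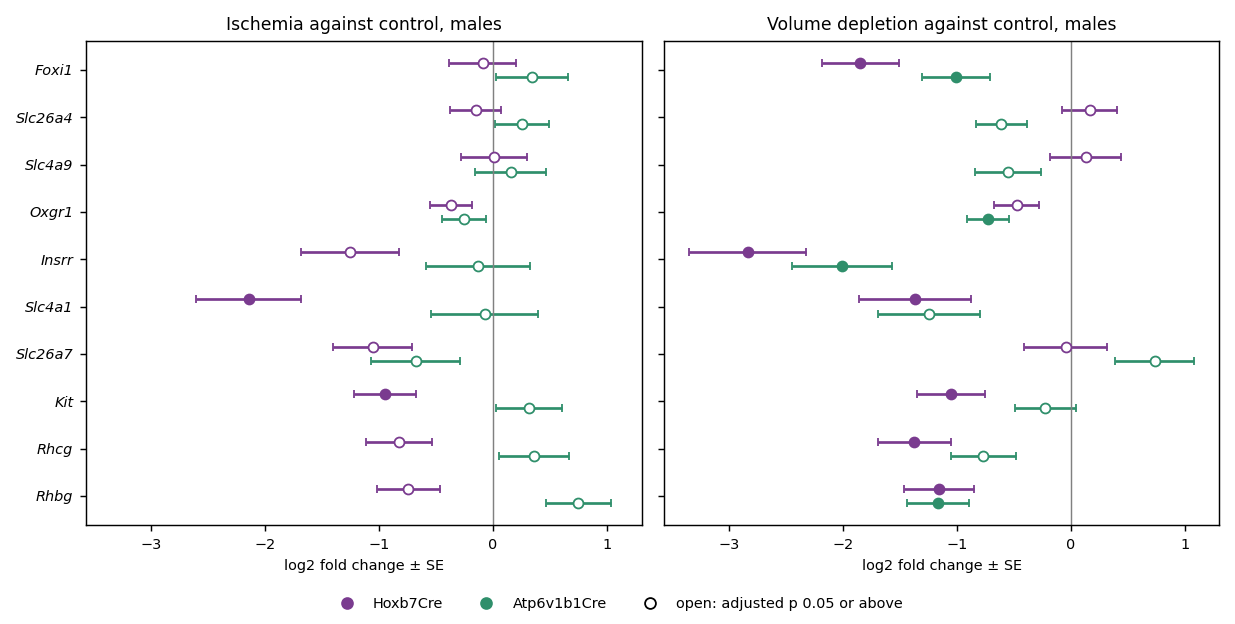
Log2 fold change with its SE of each member after ischemia (left) and volume depletion (right) against male controls of the same driver, filled where the adjusted p is below 0.05. Insrr lies at −2.84 in Hoxb7Cre and −2.01 in Atp6v1b1Cre after volume depletion, and the filled points after ischemia are Slc4a1 and Kit in Hoxb7Cre.

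**Figure D5:**
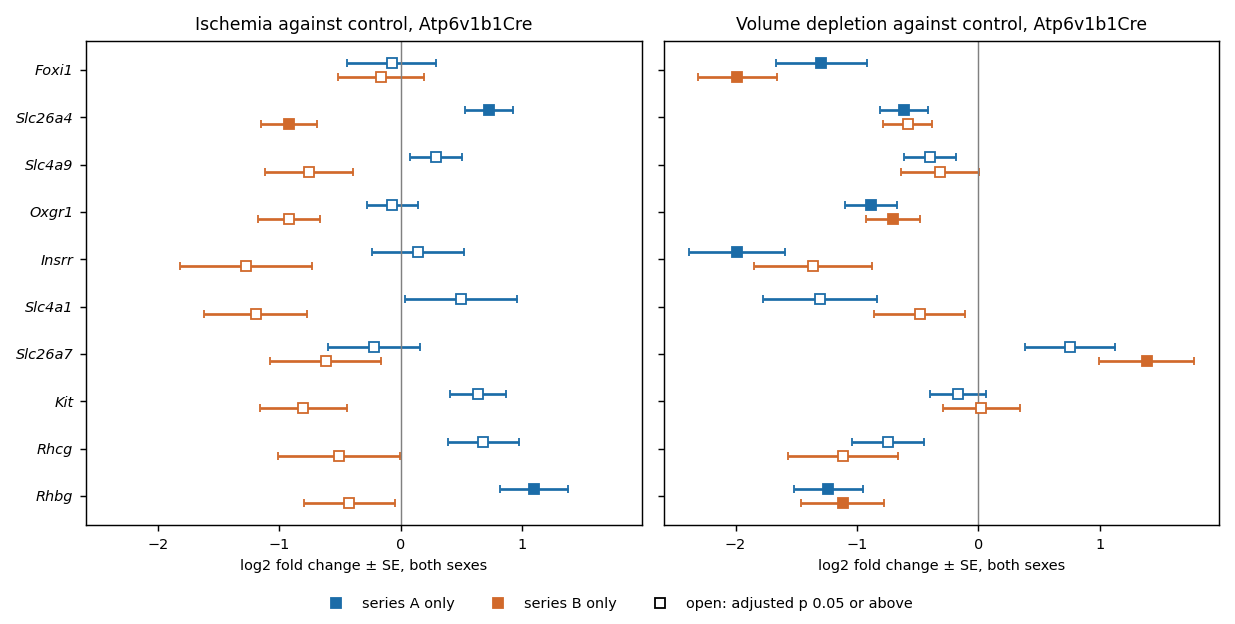
Log2 fold change with its SE of each member in Atp6v1b1Cre after ischemia (left) and volume depletion (right) with both sexes, within series A or series B, filled where the adjusted p is below 0.05. After ischemia Slc26a4 lies at 0.73 in series A and −0.92 in series B, and after volume depletion Rhbg lies at −1.24 and −1.12.

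Set directly against each other in males, the injuries differed for Foxi1 and Insrr in both drivers, the call of Insrr resting on single libraries in each and not found in series B of Atp6v1b1Cre. In Hoxb7Cre males Foxi1 was lower after volume depletion than after ischemia, where it was at 124, 150.2, 126 and 127 CPM (log2 −1.76, SE 0.34, adjusted p = 0.000326). Insrr was lower too, from 23.4, 20.0, 17.1 and 42.5 CPM after ischemia (−1.58, SE 0.49, adjusted p = 0.0158). Slc26a7 was higher, from 1.58, 1.29, 2.91 and 1.87 CPM after ischemia to 5.84, 3.44 and 2.43 CPM after volume depletion (1.01, SE 0.37, adjusted p = 0.0383). These 2 lower and 1 higher members stand beside 16.9% and 16.4% of all genes. Slc26a7 lost its call without ischemia replicate 4, 5 or 7 or volume depletion replicate 4 or 6, and Insrr without ischemia replicate 7 or volume depletion replicate 4 or 6. All the Hoxb7Cre libraries in this comparison were of series A. In the fit of both sexes over all series, and in females alone, no member passed. In the fit of both sexes in series A, Foxi1 (−0.77, adjusted p = 0.0394) and Insrr (−1.10, adjusted p = 0.00577) passed and Slc26a7 did not (0.68, adjusted p = 0.0672).

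In Atp6v1b1Cre males 5 members were lower after volume depletion than after ischemia, beside 14.3% of all genes, and Slc26a7 was higher (1.42, SE 0.39, adjusted p = 0.00868), beside 15%. Those lower were Rhbg (−1.91, SE 0.29, adjusted p = 5.56e-05), Insrr (−1.88, SE 0.46, adjusted p = 0.00366), Foxi1 (−1.35, SE 0.32, adjusted p = 0.00251), Rhcg (−1.12, SE 0.31, adjusted p = 0.00761) and Slc26a4 (−0.86, SE 0.24, adjusted p = 0.00876). The number rested on single ischemia libraries. Without replicate 1 the calls of Slc26a4, Insrr, Slc26a7 and Rhcg were lost, and without replicate 5 Slc4a9, Oxgr1, Slc4a1 and Kit passed too, with log2 fold changes of −1.04, −0.73, −1.59 and −0.90. Slc4a9 and Oxgr1 also passed without volume depletion replicate 2. In series A alone, with both sexes, 9 members were lower, beside 20.3%, and Slc26a7 was higher, beside 20.5%. In series B alone Foxi1 (−1.83, adjusted p = 0.003) and Slc26a7 (2.00, adjusted p = 0.00787) passed, while Slc26a4 was at 0.34 (adjusted p = 0.321) and Insrr at −0.08 (adjusted p = 0.994).

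Of the wider list of 26 genes, 4 fell and none rose after ischemia in Hoxb7Cre, beside 2.79% and 3.34% of all genes. Of these Aqp6, an intracellular anion channel of type A cells, had the largest change (−1.26, SE 0.27, adjusted p = 0.00902). After volume depletion in Hoxb7Cre 6 fell and 1 rose, beside 17.6% and 17.9%, with Aqp6 at −1.71 (SE 0.31), Atp6v1b1 at −1.57 (SE 0.34), Spink8 at −1.33 (SE 0.24) and carbonic anhydrase 12, Car12, at −1.29 (SE 0.27). In Atp6v1b1Cre 1 rose and none fell after ischemia, beside 3.77% and 4.74%, namely Atp6v1g3 (0.75, SE 0.23, adjusted p = 0.0445), and 7 fell and 1 rose after volume depletion, beside 6.47% and 8.11%. There Aqp6 was at −1.31 (SE 0.28), Car12 at −1.20 (SE 0.25) and Atp6v0d2 at −1.05 (SE 0.24). The gene that rose was Dmrt2, a transcription factor listed with type A cells as Aqp6 is (1.06, SE 0.25, adjusted p = 0.00604). Volume depletion against ischemia gave 4 higher and 2 lower of the 26 in Hoxb7Cre, beside 16.4% and 16.9%. The largest change there was that of Dmrt2, which was higher (1.62, SE 0.26, adjusted p = 5.79e-05). In Atp6v1b1Cre 1 was higher and 10 were lower, beside 15% and 14.3%, and Atp6v1b1 was at −1.67 (SE 0.32, adjusted p = 0.000477).

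The response to ischemia differed between the drivers for Rhbg, whose log2 fold change was 1.49 higher in Atp6v1b1Cre than in Hoxb7Cre (SE 0.40, adjusted p = 0.0238), beside 3.67% of all genes with a higher and 4.11% with a lower response. Slc4a1 (2.07, SE 0.65, adjusted p = 0.0504) and Kit (1.26, SE 0.40, adjusted p = 0.0524) lay just outside the threshold. The Rhbg call was lost without Atp6v1b1Cre ischemia replicate 1 or 4, Atp6v1b1Cre control replicate 9 or Hoxb7Cre control replicate 3, with an adjusted p between 0.0548 and 0.106. Without Atp6v1b1Cre ischemia replicate 5 Slc4a1 (2.51, adjusted p = 0.0127), Kit (1.64, adjusted p = 0.00524) and Rhcg (1.51, adjusted p = 0.0192) passed. The response to volume depletion was not found to differ between the drivers for any member by edgeR, beside 2.04% and 2.16% of all genes. By edgeR 2 members, Slc26a4 and Kit, had an unadjusted p below 0.05. DESeq2 called no member either, beside 763 genes with a higher and 863 with a lower response, and 1 member had an unadjusted p below 0.05.

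In females of Hoxb7Cre the falls seen in males were not found, and the 4 female controls were themselves unlike each other. Insrr was at 97.0 CPM in the control of series A and at 8.82, 9.88 and 14.9 CPM in those of series B and C, and at 37.2, 16.1, 35.5 and 17.8 CPM after volume depletion, with a log2 fold change of −0.30 (SE 0.65, adjusted p = 0.969). Foxi1 was at 147, 52.7, 48.2 and 121 CPM in these controls and at 99.6, 103, 90.2 and 51.1 CPM after volume depletion (−0.10, SE 0.31, adjusted p = 0.991). The depleted females, all of series A, thus lay within the span of the controls. The difference between the sexes in the response to volume depletion, female minus male, was 1.74 for Foxi1 (SE 0.48, adjusted p = 0.014), 1.60 for Rhcg (SE 0.54, adjusted p = 0.0402) and 2.54 for Insrr (SE 0.89, adjusted p = 0.0468), beside 8.51% of all genes with a higher and 7.48% with a lower value. After ischemia it was 2.97 for Slc4a1 (SE 0.90, adjusted p = 0.0305), beside 4.03% and 6.51%. Slc4a1 was at 52.4, 9.53, 4.13 and 7.33 CPM in female controls and at 17.2, 23.7 and 56.2 CPM after ischemia.

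These differences rested on few libraries. The calls of Rhcg and Insrr were lost without any one of several libraries, of both sexes and, for Insrr, of both drivers, with adjusted p between 0.0502 and 0.112, and that of Slc4a1 without ischemia replicate 3, 5 or 6 or control replicate 3, 6, 9 or 10, between 0.06 and 0.168. Without control replicate 1, the female control of series A, Slc4a1, Kit and Rhbg also differed between the sexes after volume depletion and Insrr, Kit, Rhcg and Rhbg after ischemia. Most female controls and no injured Hoxb7Cre females were of series B or C. Sex and series thus cannot be told apart in Hoxb7Cre responses measured against controls. The injured Hoxb7Cre libraries of both sexes were of series A. Among them Foxi1 was at 51.1 to 103 CPM in females and 34.9 to 42.3 CPM in males after volume depletion. After ischemia it was at 65.1 to 124 CPM in females and 124 to 150.2 CPM in males. The sexes were not tested against each other there. In Atp6v1b1Cre, where both series held injured females, no member and no gene differed between the sexes by edgeR after ischemia (0% higher and 0% lower) or volume depletion (0% and 0%), with 676 and 1756 genes at an unadjusted p below 0.05 and 1 member, Foxi1, in each. DESeq2 called 1 gene after ischemia and 29 with a higher and 16 with a lower female response after volume depletion, and none of the members. By edgeR, Foxi1 in Atp6v1b1Cre was at −1.10 (SE 0.49) after ischemia and −1.41 (SE 0.48) after volume depletion, female minus male. After volume depletion this sign was opposite to that in Hoxb7Cre.

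Across the 48 pulldown libraries, which share drivers, conditions and series, the members mostly varied together. Of the 45 pairs 38 had a Pearson's r of log2 CPM above 0, with a median of 0.60. The most alike were Insrr and Rhbg (r = 0.86), Slc4a1 and Kit (0.81), Insrr and Rhcg (0.81) and Slc26a4 and Slc4a9 (0.77). Slc26a7 was apart, with r between −0.62 (Foxi1) and 0.13 (Kit). Of 13930 genes with a mean of at least 1 CPM, those most like Foxi1 were Zfp251 (r = 0.85), Klhl5 (0.84), Dscr3 (0.84), Tmem52b (0.83) and Arhgef1 (0.83). Those most like Slc26a4 were Hepacam2 (0.83), Syn2 (0.79), Ank (0.77), Slc4a9 (0.77) and the pump subunit Atp6v1c2 (0.77), and those most like Slc4a1 were Wscd2 (0.87), Mthfd1 (0.82), Ccdc91 (0.82), Kit (0.81) and Inpp5j (0.81). The summed principal cell markers had an r of 0.52 with Rhcg and with Kit, and between −0.28 (Oxgr1) and 0.31 (Slc26a7) with the remaining members.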

How the data were processed

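The deposited file holds raw counts of reads per gene symbol in 69 libraries, not normalized. Per the labels and the paper's methods, the authors called bases and trimmed adaptors with CASAVA 1.8.2, trimmed ends with Trimmomatic 0.36, aligned TruSeq reads to mm10 with STAR 2.5.3a and counted them with HTSeq 0.6.1p2 at default settings, which leaves out reads that align to several places. The annotation was not given in the sources used here. Members of gene families and overlapping genes are therefore uncertain. The members and gene lists were chosen with earlier results of these data known.

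Tests were run with edgeR 4.0.16 (R 4.3.3, limma 3.58.1) and repeated in DESeq2 1.42.0. Genes with at least 2 counts over all libraries were kept, libraries were scaled by TMM, and log2 fold changes were tested by the quasi-likelihood test with Benjamini-Hochberg adjustment at 0.05. Pools were compared over 42 control libraries with sex as a covariate, injuries over 22 male pulldowns of 5.5 months in one fit, and sexes over the 43 pulldowns of 5.5 months. By driver, sex, age and series the 21 total libraries match the 21 control pulldowns in number. Within each run of library numbers they also stand in the same order of driver, sex and age. Each total library may thus be of the same mouse as a pulldown, though the labels do not state pairs. The tests treat all libraries as independent, and such pairs were not fitted. The comparison of the sexes over controls may therefore count the same mouse again. P-values measure the spread between libraries. Levels are CPM, and likeness is Pearson's r of log2 CPM with a prior count of 2. Per-length levels divide by the merged exons of GENCODE M21. Members were named in every comparison, and from the wider list at most the 4 largest changes that passed. Alternatives were no filter on low counts, other filters and scalings, DESeq2, a replicate block, series as a covariate, single sexes, both sexes, 1 library left out and, added after seeing the data, series A or B alone and, for a pool against total RNA, strata of driver, sex, age and series as covariates. Few injured and control libraries shared a replicate number, so whether these numbers pair samples could not be told. Scripts were tested on simulated data. The remaining red cell markers are not reported here.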

Additional observations from a re-analysis of the deposited data

Results flagged for a closer look

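In 4 of 100 groups of libraries tested, the highest library stood apart from the rest of its group by Dixon's criterion at 95%, and chance flags about 1 in 20 groups. Slc26a7 was at 3.41 CPM in ischemia replicate 3 of Atp6v1b1Cre, with the next library at 1.62 CPM. Slc4a1 was at 56.2 CPM in ischemia replicate 3 of Hoxb7Cre, with the next at 23.7 CPM. Among Hoxb7Cre males after ischemia, Foxi1 was at 150.2 CPM in replicate 5, with the next at 127 CPM, and Slc26a4 was at 331 CPM in replicate 6, with the next at 315 CPM.

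In 5 cases a response differed between drivers or sexes by a test of the difference itself. The log2 fold change of Rhbg after ischemia was 1.49 higher in Atp6v1b1Cre than in Hoxb7Cre males. In Hoxb7Cre the response of females exceeded that of males by 2.97 for Slc4a1 after ischemia, and by 1.74 for Foxi1, 1.60 for Rhcg and 2.54 for Insrr after volume depletion on the log2 scale. The female controls of that driver were 1 of series A, 1 of B and 2 of C, and the injured females were all of series A.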

How the results depend on the processing

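The number of members that passed changed with the settings below. For Atp6v1b1Cre against Hoxb7Cre controls it went from 5 to 1 in series B alone and to 1 with a log2 fold change of at least 1 required. For female against male controls it went from 3 to 1 with the replicate block, 1 at 5.5 months, 6 in series A, 1 in series B and 0 with the stricter threshold. For ischemia in Hoxb7Cre it went from 2 to 4 with DESeq2, 6 with series as a covariate, 7 with only the 2 groups fitted, 1 with the stricter threshold, 0 with both sexes and 0 in females. For volume depletion in Hoxb7Cre it went from 6 to 1 with both sexes and 0 in females. For ischemia in Atp6v1b1Cre it went from 0 to 2 in series A and 1 in series B. For volume depletion in Atp6v1b1Cre it went from 4 to 7 with the replicate block, 7 with series as a covariate and 7 with both sexes. For volume depletion against ischemia it went from 3 to 0 with both sexes and 0 in females in Hoxb7Cre, and from 6 to 10 in series A and 2 in series B in Atp6v1b1Cre. For the drivers' difference after ischemia it went from 1 to 4 with DESeq2, 3 with edgeR's own filter, 0 with the replicate block, 4 with series as a covariate, 0 with both sexes, 0 in females, 2 over 25 males and 5 in series A. For the sexes' difference in Hoxb7Cre it went from 1 to 2 with DESeq2, 2 with edgeR's own filter, 3 with series as a covariate and 0 with the replicate block after ischemia, and from 3 to 0 with the block after volume depletion. The cause was not tested.

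Leaving out 1 library moved the number to between 1 and 4 for ischemia and 5 and 7 for volume depletion in Hoxb7Cre, 0 and 1 and 3 and 7 in Atp6v1b1Cre, and 1 and 3 (Hoxb7Cre) and 2 and 10 (Atp6v1b1Cre) for volume depletion against ischemia. For the drivers' differences it lay between 0 and 4 after ischemia and stayed at 0 after volume depletion, and for the sexes' differences between 0 and 5 and 1 and 6 in Hoxb7Cre and at 0 in Atp6v1b1Cre. Single members reversed as follows on the log2 scale. Slc4a1 was at −0.83 in series B for Atp6v1b1Cre against total RNA, at 0.70 in males and 1.19 in series A for Hoxb7Cre against total RNA, and at −0.96 in series A between the pools. Rhcg was at −0.00222 in females for Hoxb7Cre against total RNA, and Rhbg at 0.44 in series A for female against male. In females alone of Hoxb7Cre, Slc4a1 was at 0.83 and Kit at 0.42 after ischemia, and Kit at 0.30, Rhcg at 0.22 and Rhbg at 0.32 after volume depletion. In series B of Atp6v1b1Cre, Slc26a4 was at −0.92 after ischemia and at 0.34 for volume depletion against ischemia. Of the values under these alternatives 1556 stayed on the same side of the threshold, including 125 that passed in neither fit and changed sign, these 13 changed sign where one of the values passed, and 76 lost and 85 gained a call. With 1 library left out 3349 stayed on the same side, including 104 that passed in neither fit and changed sign, no value that passed changed sign, and 70 lost and 61 gained a call. With libraries of 1 driver compared within strata of sex, age and series, 8 members passed for Atp6v1b1Cre and 6 for Hoxb7Cre against total RNA, against 7 each over all controls. The replicate numbers gave 1 or 2 shared pairs a comparison, whose deviations correlated at −0.204, −0.101 and −0.445. Counting error was small at these depths except for Slc26a7, with as few as 12 counts in a library.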
